A study of Homo sapiens with 15 samples.

Results

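The genes described here are 57 genes of human chromosome 22, a fixed list of symbols, of 20806 gene entries in the deposited count tables and of 474 entries on that chromosome. All 57 had a row, all were placed on chromosome 22 by the RefSeq table for GRCh38.p14, and all passed the filter on low counts, which kept 14246 genes in all and 375 on chromosome 22. The other 318 tested genes of the chromosome serve as their nearest comparison. The members were chosen by these same counts, since chromosome 22 genes had been seen to be lower in the knockout-derived libraries than in the control libraries, so every comparison of the members with the control is a description and supports nothing. The list's working name speaks of a dosage shift. The chromosome was checked by position, but DNA copy number was not analysed here, so the word dosage could not be.

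Poly(A) RNA was sequenced in 5 derivatives of C4-2 (human prostate cancer cells that grow after androgen withdrawal), with 3 libraries per line. Scramble is the control line. KO lacks ATGL, the adipose triglyceride lipase encoded by PNPLA2, KO_WT is the knockout with wild-type ATGL added back, KO_S47A carries a lipase-dead S47A protein, and KO_S404A carries an S404A protein. All 5 lines were kept in medium with 5 mM glucose and 5% dialyzed serum. Each genotype is a single line, the sources used here do not say if it began as 1 clone or as a pool of cells, and they name no separate cultures behind the 3 libraries, so p-values reflect a spread that may be technical. KO_WT, KO_S47A and KO_S404A all derive from the knockout and are called the knockout-derived lines together with it.

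Genes that sit together on a chromosome need share no function. What they share is the DNA molecule: when cells gain or lose a copy of a chromosome, the mRNA of most genes on it usually moves in the same direction as the number of copies, and cancer cell lines often carry such gains and losses. Many proteins work as subunits of complexes whose other subunits are encoded elsewhere in the genome, so a shift of 1 chromosome can leave a subunit out of step with its partners at the mRNA level. Chromosome 22 encodes, among others, the APOBEC3 cytidine deaminases, the Ku70 subunit of DNA repair, the SWI/SNF subunit SMARCB1 and the Hippo pathway regulator merlin.

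The libraries held 40846694 to 64345775 counts in genes. PNPLA2 checked the labels: it stood at 54.3, 47 and 45.3 CPM (counts in a gene relative to the library total, scaled by TMM factors) in Scramble and at 13, 11.9 and 9.11 in KO. With an ATGL protein added it stood at 303, 443 and 493 CPM in KO_S404A, 113, 110.2 and 164 in KO_S47A and 213, 207 and 241 in KO_WT. Counts per gene do not show which ATGL protein was added, so the labels of the 3 addback lines were not checked against each other. The 9 luminal prostate markers summed to 7883 to 8216 CPM in Scramble and to 5569.6 to 7504 CPM in the 12 knockout-derived libraries, while 4 blood markers summed to at most 0.242 CPM, with CD3E at 0 in every library. Stromal markers (5 genes) summed to 12.3 to 17.8 CPM in Scramble and 16.2 to 27.0 CPM in the 12, and endothelial markers (3 genes) to 5.06 to 8.68 and 5.81 to 14.7 CPM. Within Scramble, KO_WT and KO_S47A the library numbered 3 stood apart from the other two, which differed least from each other (chi-square per degree of freedom 8.34 to 10.3, against 74.4 to 192 with the library numbered 3). In KO (41.9 to 65.0) and KO_S404A (147 to 252) all 3 libraries differed from each other. In KO_S404A and KO the count-weighted mean gene length was highest in libraries 2 (3886 bases) and 1 (3827 bases), against 3543 to 3727 bases in the 13 others. The part of these differences in the values below was not tested. In bulk RNA, fewer cells that express a gene and less RNA per cell cannot be told apart.

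Nearly the whole list stood lower in the knockout-derived lines. The median log2 difference of the 57 members from Scramble was −0.30 for KO, −0.42 for KO_WT, −0.41 for KO_S47A and −0.34 for KO_S404A, and 54, 55, 55 and 54 of the members lay below 0. Across all 14246 tested genes 46.0%, 48.2%, 47.4% and 45.3% lay below 0. The 318 other tested genes of chromosome 22 had −0.33, −0.37, −0.31 and −0.28 in the same order, medians of much the same size as those of the members. The genes of other chromosomes had a median between 0.02 and 0.03 in each of the 4 comparisons. The 4 comparisons share the 3 Scramble libraries.

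Taken per library against the Scramble mean, the median of the members was −0.03, −0.0049 and 0.04 in the Scramble libraries themselves, and −0.29, −0.30 and −0.25 in KO. It was −0.43, −0.23 and −0.23 in KO_S404A, −0.40, −0.35 and −0.39 in KO_S47A and −0.48, −0.42 and −0.38 in KO_WT. All 12 knockout-derived libraries were low, from −0.48 to −0.23, and the Scramble libraries lay within 0.04 of 0, so the groups did not overlap. Set against the Scramble library of the same number, the medians ran from −0.44 to −0.24, and for the libraries numbered 3 alone they were −0.29, −0.40, −0.44 and −0.27 in KO, KO_WT, KO_S47A and KO_S404A. The shift is also seen in raw shares: reads of all chromosome 22 genes made up 2.60% to 2.66% of gene counts in Scramble and 2.04% to 2.24% in the 12 other libraries. The ratio of the mean shares was 0.805 for chromosome 22 and between 0.953 and 1.04 for the 22 other chromosomes.

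**Figure D1:**
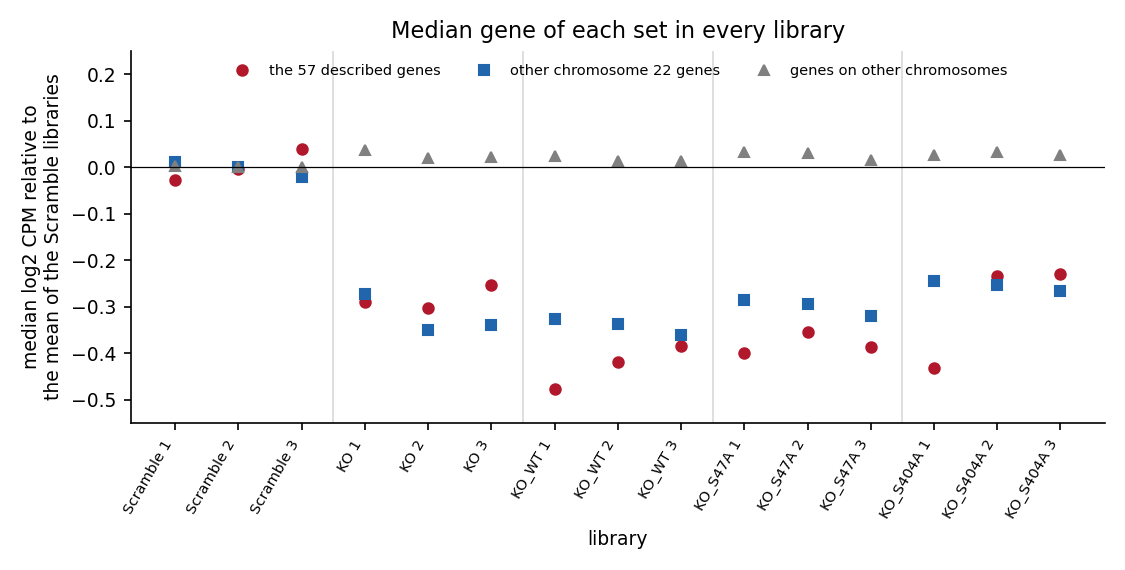
Median log2 difference from the Scramble mean in each of the 15 libraries, for the members, for the other tested genes of chromosome 22 and for genes on other chromosomes; the lines are on the x axis and each point is 1 library. The 12 knockout-derived libraries lie between −0.48 and −0.23 for the members and between 0.01 and 0.04 for genes on other chromosomes.

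Members were low in each part of the chromosome, though not every stretch of it was. With the 375 tested genes split by position into 3 equal stretches, the members had a median log2 difference (mean of the 4 knockout-derived lines minus Scramble) of −0.40 in the first (14 members), −0.35 in the middle one (26) and −0.40 in the last (17), against −0.32, −0.32 and −0.35 for the other genes there. Each member was also set beside its nearest tested neighbours, 5 on each side that are not members. The median difference between a member and its neighbours was −0.04, and 41 of 57 members lay within 0.2 of the median of their neighbours. Of the 16 others, 5 differed from it by more than 0.5: SLC5A1 (−0.98), ADORA2A (−0.78) and ARFGAP3 (−0.67) lay below and APOBEC3F (1.27) and APOBEC3C (0.69) above. The surroundings themselves were uneven. The neighbours of EWSR1 had a median of −0.51, while those of CSNK1E, MYH9 and BCR had 0.02, −0.03 and −0.07, so these 3 members (−0.34, −0.51 and −0.29) were lower than genes around them that lay near 0.

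**Figure D2:**
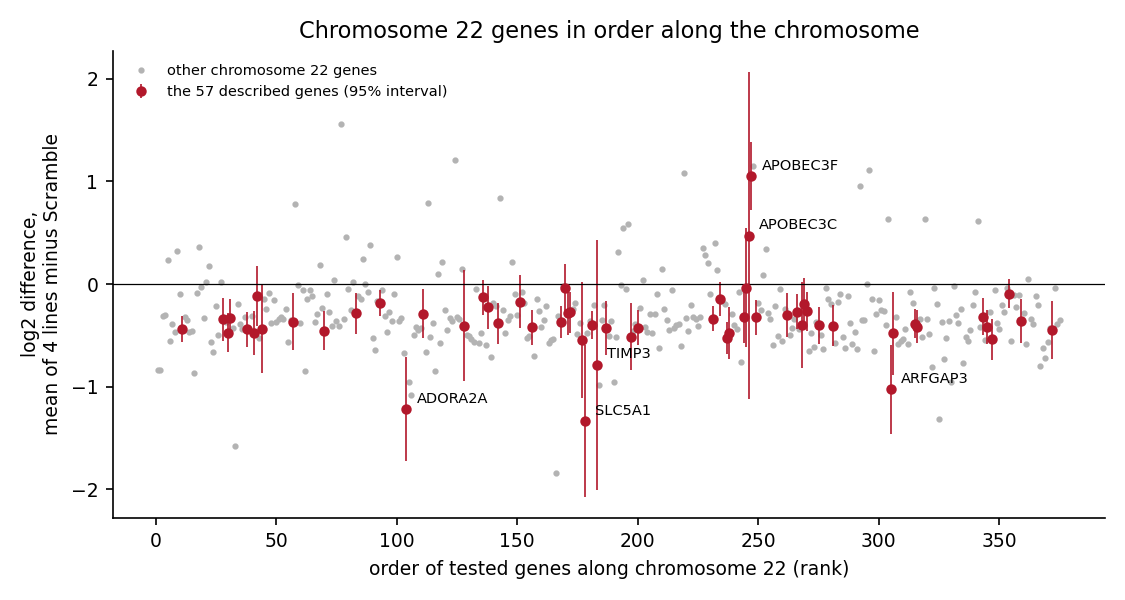
Log2 difference (mean of the 4 knockout-derived lines minus Scramble) of the 375 tested chromosome 22 genes in their order along the chromosome, with the 57 members marked. Most members and most other genes lie below 0 in each of the 3 stretches, and the members farthest from the rest are SLC5A1, ARFGAP3, ADORA2A and TIMP3 on the low side and APOBEC3F on the high side.

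The members were also taken 1 by 1. By edgeR's quasi-likelihood test, adjusted over all genes, 14 of 57 members were called lower in KO, where 1.72% of all tested genes were, and 21 in KO_WT (1.96% of all), 15 in KO_S47A (2.23%) and 9 in KO_S404A (1.77%). In each line 1 member, APOBEC3F, was called higher, where 0.969%, 1.51%, 1.59% and 1.34% of all genes were. In the mean of the 4 lines 26 members were called lower (3.76% of all genes) and 1 higher (2.4%). These contrasts chose the list, so nothing is read from the counts. They also rest on few libraries: leaving out 1 library at a time left 3 to 7 members called lower in KO, 2 to 12 in KO_WT, 5 to 15 in KO_S47A and 3 to 7 in KO_S404A. Of all genes 0.864% to 1.29% were then called lower in KO and 0.965% to 1.59% in KO_WT. The shares were 0.922% to 3.88% in KO_S47A and 1.00% to 1.36% in KO_S404A. Each of the 6 libraries left out moved the count of members by over 1.5 times in KO and in KO_WT, as did KO_S47A 1 and 2 and Scramble 2 and 3 in KO_S47A and Scramble 2 and 3 in KO_S404A. The medians stayed below 0 under the same omissions, between −0.46 and −0.26 over the 4 lines. In KO the median moved beyond its spread without KO 1 (−0.27) and without KO 2 (−0.26), against −0.30 in the main fit. The 3 members ATP6V1E1, CBY1 and C22orf28 were called lower in every line, and 28 members in none. No share of all genes is given for these 2 counts, so nothing is read from them. Leaving out 1 library ended the call of C22orf28 in KO in all 6 cases, that of CBY1 in KO_S47A in 6 and in KO_WT in 5, and that of ATP6V1E1 in KO_WT in 4.

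The libraries were also compared without a model. For 26 of 57 members (45.6%) all 12 knockout-derived libraries lay below all 3 Scramble libraries, against 3.97% of all tested genes and 71 of the 318 other chromosome 22 genes (22.3%). For 1 member, APOBEC3F, all 12 lay above, against 2.7% of all tested genes. Line by line, all 3 libraries lay below all 3 of Scramble for 36 members in KO (10.6% of all genes), 46 in KO_WT (11.6%), 39 in KO_S47A (12.0% of all genes) and 28 in KO_S404A (8.88%). Levels spanned a wide range: in Scramble they ran from 0.0410 CPM per kilobase of gene length for TIMP3 to 328 for XRCC6, with a median of 16.1.

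Among the 5 genes of metabolism and transport, all lay below 0 in KO and 4 were called lower there, where 1.72% of all genes were. Leaving out 1 library ended the call of ARSA in all 6 cases and that of SLC5A1 in 5. SLC5A1, the sodium-glucose cotransporter SGLT1 that takes up glucose against its gradient, stood at 3.55, 6.15 and 2.56 CPM in Scramble, 0.822, 1.03 and 0.748 in KO, 2.64, 2.27 and 0.664 in KO_S404A, 3.02, 3.04 and 1.49 in KO_S47A and 2.26, 1.82 and 1.00 in KO_WT. All 3 KO libraries were below every Scramble library, with a log2 difference of −2.24 (SE 0.50), and so were the 3 KO_WT libraries. KO_S47A reached 3.04 CPM and KO_S404A 2.64 CPM, so both overlapped with Scramble, where the lowest library had 2.56 CPM. The counts of SLC5A1 are low and its Scramble libraries differ widely among themselves. ATP6V1E1, a subunit of the proton pump of lysosomes and endosomes that was chosen after its values were seen, stood at 171, 177 and 162 CPM in Scramble, 114, 125 and 129 in KO, 118, 114 and 124 in KO_S404A, 134, 126 and 127 in KO_S47A and 128, 136 and 130.2 in KO_WT. Every knockout-derived library lay below every Scramble library, and the 4 lines differed from Scramble by −0.47, −0.37, −0.40 and −0.52 in log2. ADSL, the adenylosuccinate lyase of purine synthesis and the member of this group nearest to 0 (mean of the 4 lines, −0.30, SE 0.10), stood at 232, 230.4 and 199.7 CPM in Scramble, 142, 192 and 179 in KO, 188, 136 and 185 in KO_S404A, 197, 189 and 195 in KO_S47A and 187, 178 and 184 in KO_WT. It too had no overlap, although its lowest values, in KO 1 and KO_S404A 2, are those of the libraries with the longest mean gene length. The lysosomal sulfatase ARSA (mean of the 4 lines, −0.45, SE 0.13) and the N-glycan mannosyltransferase ALG12 (−0.42, SE 0.08) complete the group.

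The 250 bases before the start of SLC5A1 and of ARFGAP3, the members at the low end, are shown because they differ in a feature that many member promoters share, a high density of CpG. Both were read from RefSeq's promoter table for GRCh38.p14, 5′ to 3′ on the strand of the gene, with each CpG in capitals. SLC5A1 is on the plus strand at chr22:32043011-32043260 and ARFGAP3 on the minus strand at chr22:42857274-42857523.
SLC5A1: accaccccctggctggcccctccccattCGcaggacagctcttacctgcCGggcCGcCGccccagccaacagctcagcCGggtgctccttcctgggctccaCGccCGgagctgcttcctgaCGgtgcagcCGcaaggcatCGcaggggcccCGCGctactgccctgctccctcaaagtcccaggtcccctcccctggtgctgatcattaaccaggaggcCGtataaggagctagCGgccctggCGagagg
ARFGAP3: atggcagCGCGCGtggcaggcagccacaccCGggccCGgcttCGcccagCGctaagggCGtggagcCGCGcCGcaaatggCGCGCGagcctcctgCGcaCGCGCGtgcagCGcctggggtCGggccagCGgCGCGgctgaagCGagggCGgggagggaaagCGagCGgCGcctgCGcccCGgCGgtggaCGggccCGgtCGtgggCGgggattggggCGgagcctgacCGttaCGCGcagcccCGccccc
The SLC5A1 window holds 15 CpG and the ARFGAP3 window 40, at 68.8% and 78.8% G and C. Over the 47 members with an entry in the table the median window held 29 CpG at 71.6% G and C, against 11 and 58.0% over all 27305 windows.

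The 3 mitochondrial members lay lower without overlap in all 12 libraries, as did 3.97% of all tested genes and 22.3% of the other chromosome 22 genes. TOMM22, the receptor subunit of the outer membrane protein translocase, stood at 394, 377 and 351 CPM in Scramble, 232, 322 and 287 in KO, 255, 192 and 302 in KO_S404A, 286, 256 and 298 in KO_S47A and 251, 256 and 296 in KO_WT, a difference of −0.48 (SE 0.12) for the mean of the 4 lines. SAMM50, which inserts beta-barrel proteins into the outer membrane, stood at 67.5, 72.7 and 77.7 CPM in Scramble, 57.4, 59.3 and 64.5 in KO, 52.1, 58.4 and 59.2 in KO_S404A, 50.7, 50.5 and 53.5 in KO_S47A and 54, 50.9 and 58.1 in KO_WT. Its highest knockout-derived library (KO 3) came close to its lowest Scramble library, and the mean difference was −0.39 (SE 0.07). TXNRD2, the mitochondrial thioredoxin reductase, differed by −0.44 (SE 0.08).

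Of the 4 members of membrane traffic, ARFGAP3, which switches off the small GTPase ARF1 at the Golgi, was lowest, at 132, 147 and 101 CPM in Scramble, 46.5, 46.5 and 44.3 in KO, 85.3, 57.5 and 43.2 in KO_S404A, 96.5, 98 and 51.6 in KO_S47A and 78, 68.4 and 46.9 in KO_WT. KO was lowest and most even, KO_S47A 1 and 2 came nearest to Scramble, and no library of the 12 reached the lowest Scramble library. Its log2 difference was −1.47 (SE 0.28) in KO and −1.03 (SE 0.20) for the mean of the 4 lines. AP1B1, the large beta subunit of the AP-1 clathrin adaptor, was the traffic gene nearest to 0, at 153, 144 and 155 CPM in Scramble, 146, 124 and 138 in KO, 117, 168 and 149 in KO_S404A, 109, 124 and 121 in KO_S47A and 104, 117 and 131 in KO_WT. KO_S404A 2 exceeded all 3 Scramble libraries, so the groups overlapped (mean of the 4 lines, −0.23, SE 0.10). The endosomal adaptor TOM1 (−0.43, SE 0.12) and the pseudophosphatase SBF1 (−0.36, SE 0.10) lay between them.

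In the cytoskeleton and matrix group (4 members) TIMP3, a secreted inhibitor of metalloproteinases, had the lowest mean difference, −0.79 (SE 0.57), but only 1 to 20 counts per library. It stood at 0.225, 0.331 and 0.117 CPM in Scramble, 0.144, 0.198 and 0.187 in KO, 0.0966, 0.0900 and 0.390 in KO_S404A, 0.0741, 0.225 and 0.0403 in KO_S47A and 0.0628, 0.0239 and 0.128 in KO_WT, and its libraries overlapped. PARVB, beta-parvin, which joins integrin-linked kinase to actin, stood at 59, 60.9 and 66.3 CPM in Scramble, 49.7, 50.5 and 46.8 in KO, 42.3, 52.9 and 48.9 in KO_S404A, 42.4, 42.1 and 49.2 in KO_S47A and 43.4, 48.2 and 43.1 in KO_WT. All 12 libraries were below the 3 of Scramble (mean of the 4 lines, −0.42, SE 0.08). MYH9, the heavy chain of non-muscle myosin, had a mean difference of −0.51 (SE 0.15), and the membrane-bending protein PACSIN2 of −0.48 (SE 0.19).

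All 11 signalling members lay below 0 in the mean of the 4 lines, and 6 were called lower in that comparison (3.76% of all genes). ADORA2A, an adenosine receptor, was lowest, at 6.66, 5.90 and 3.66 CPM in Scramble, 2.53, 2.34 and 1.14 in KO, 2.98, 1.86 and 1.80 in KO_S404A, 2.76, 3.24 and 1.96 in KO_S47A and 2.36, 2.08 and 2.89 in KO_WT. Every knockout-derived library was below the lowest Scramble library, and the mean difference was −1.22 (SE 0.24). MAPK12, the p38 gamma kinase, was nearest to 0, at 30.7, 32.6 and 30.7 CPM in Scramble, 26.1, 28 and 27.1 in KO, 32.7, 27.9 and 27.9 in KO_S404A, 31.3, 31.2 and 30.0 in KO_S47A and 29.1, 32 and 29.5 in KO_WT. KO lay below Scramble, the other 3 lines overlapped with it, and the mean difference was −0.09 (SE 0.07). CBY1, an antagonist of beta-catenin, differed by −0.53 (SE 0.07), the kinase PIM3 by −0.54 (SE 0.09), casein kinase CSNK1E by −0.34 (SE 0.06) and the cofilin kinase LIMK2 by −0.37 (SE 0.07), all without overlap. Merlin (NF2, −0.38, SE 0.09), the adaptor CRKL (−0.37, SE 0.13), BCR (−0.29, SE 0.09), the nuclear transport factor RANBP1 (−0.43, SE 0.20) and 14-3-3 eta (YWHAH, −0.55, SE 0.26) had overlapping libraries.

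The 4 members of protein turnover lay between −0.45 and −0.27 in the mean of the 4 lines. PPIL2, a U-box peptidylprolyl isomerase, was lowest, at 50.8, 52 and 47.8 CPM in Scramble, 44.5, 34.9 and 33.7 in KO, 36.3, 43.9 and 37.4 in KO_S404A, 36.1, 37.7 and 35.2 in KO_S47A and 33.8, 30.9 and 36.4 in KO_WT. No knockout-derived library reached Scramble, and the mean difference was −0.45 (SE 0.09). ST13, a co-chaperone of HSP70, stood at 396, 425 and 377 CPM in Scramble, 346, 336 and 319 in KO, 329, 359.8 and 289 in KO_S404A, 347, 340.3 and 305 in KO_S47A and 352, 358 and 298 in KO_WT, again with no overlap (−0.27, SE 0.08). UFD1L, now named UFD1, an adaptor of the VCP segregase, differed by −0.33 (SE 0.09), and RBX1, the RING subunit of cullin ubiquitin ligases, by −0.40 (SE 0.19) on 139 to 264 counts per library and a length of 519 bases.

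In RNA processing and translation (9 members) the initiation factor subunit EIF3D was lowest, at 418, 420.0 and 406 CPM in Scramble, 299.6, 295 and 293 in KO, 327, 318 and 263 in KO_S404A, 337, 349 and 289.7 in KO_S47A and 331, 327 and 277 in KO_WT. The gap to Scramble was wide, since the highest of the 12 libraries had 349 CPM and the lowest Scramble library 406 CPM (mean of the 4 lines, −0.43, SE 0.08). DGCR8, which with DROSHA cuts primary microRNA transcripts, was nearest to 0, at 31.8, 30.6 and 43.3 CPM in Scramble, 34.4, 30.7 and 37.7 in KO, 30.9, 32.7 and 40.6 in KO_S404A, 29.1, 28.6 and 34.9 in KO_S47A and 24.9, 28.6 and 37.4 in KO_WT. Its libraries overlapped, and in every line the library numbered 3 was the highest (−0.12, SE 0.13). C22orf28, the tRNA splicing ligase now named RTCB, differed by −0.40 (SE 0.06) and the ribosome biogenesis factor PES1 by −0.42 (SE 0.08), both without overlap. The RNA-binding proteins DDX17 (−0.14, SE 0.08) and EWSR1 (−0.13, SE 0.08) and the splicing subunit SF3A1 (−0.17, SE 0.12) had overlapping libraries and lay near DGCR8. The eIF4E transporter EIF4ENIF1 (−0.28, SE 0.09) and the GTP-binding protein DRG1 (−0.28, SE 0.10) lay between the ends.

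The 9 chromatin and transcription members all lay below 0 in the mean of the 4 lines, from TOB2 to PATZ1. For 3 of them all 12 libraries lay below Scramble, against 3.97% of all tested genes and 22.3% of the other chromosome 22 genes. In KO_S404A alone 8 of 9 lay below 0, with PATZ1 at 0.13. TOB2, an antiproliferative adaptor of mRNA deadenylation, stood at 59.4, 60.6 and 61 CPM in Scramble, 55.2, 41 and 49.9 in KO, 43.7, 54.6 and 53.9 in KO_S404A, 40.1, 41.8 and 40.6 in KO_S47A and 42.6, 43.4 and 43 in KO_WT. All 12 libraries lay below Scramble, with KO 1 the highest (−0.40, SE 0.08). PATZ1, a zinc finger regulator of transcription, stood at 42.5, 45.2 and 38 CPM in Scramble, 47.2, 40.2 and 36.7 in KO, 42.3, 56.4 and 38.3 in KO_S404A, 39.4, 41.5 and 35.7 in KO_S47A and 37.4, 40.3 and 36.5 in KO_WT, with every line overlapping Scramble (−0.04, SE 0.11). The histone chaperone HIRA (−0.34, SE 0.10), the chromobox proteins CBX7 (−0.32, SE 0.08) and CBX6 (−0.32, SE 0.12) of Polycomb complexes and the acetyltransferase scaffold BRD1 (−0.32, SE 0.08) lay near the list's median. L3MBTL2, of a variant Polycomb complex, differed by −0.27 (SE 0.09), and the acetyltransferase EP300 by −0.19 (SE 0.12). SMARCB1, the core SWI/SNF subunit, had a small difference of −0.19 (SE 0.06) but no overlap.

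SMARCB1 was also the 1 member whose promoter window held the interferon-stimulated response element (GAAA, any 2 bases, GAAA), searched on both strands and known from genes that interferon induces. The window lies on the plus strand at chr22:23786716-23786965 (GRCh38.p14, RefSeq), with the match, which starts 90 bases before the start site, in capitals.
SMARCB1: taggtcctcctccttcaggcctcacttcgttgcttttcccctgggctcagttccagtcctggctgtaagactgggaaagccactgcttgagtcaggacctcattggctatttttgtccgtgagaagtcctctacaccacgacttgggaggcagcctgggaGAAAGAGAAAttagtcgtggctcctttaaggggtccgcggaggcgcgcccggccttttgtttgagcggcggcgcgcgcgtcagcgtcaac
The element was in 1 of 47 member windows (2.13%) and in 839 of all 27305 (3.07%). ADORA2A, ADSL, APOBEC3B, APOBEC3C, APOBEC3F, ARSA, PATZ1, RANBP1, ST13 and UFD1L had no entry in the table, so this search did not reach them.

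Both DNA damage genes lay below 0 in the mean of the 4 lines. CHEK2, the checkpoint kinase, stood at 33.8, 30.7 and 48.9 CPM in Scramble, 27, 28.4 and 42.4 in KO, 20.2, 21.5 and 38.1 in KO_S404A, 20.3, 19.5 and 38.9 in KO_S47A and 22.5, 24.9 and 39.7 in KO_WT. In every line the library numbered 3 was far above the others, so the lines overlapped. Its mean difference of −0.41 (SE 0.25) had a 95% interval of −0.95 to 0.14 and did not pass edgeR's test (adjusted p = 0.461). XRCC6, the Ku70 subunit that binds broken DNA ends, stood at 657, 678 and 771 CPM in Scramble, 538, 591 and 630.5 in KO, 462, 501 and 592 in KO_S404A, 468, 462 and 568 in KO_S47A and 483, 494 and 583 in KO_WT. All 12 libraries were below the lowest Scramble library (−0.41, SE 0.09).

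The 3 numbered open reading frames were each called lower in KO, where 1.72% of all genes were. Leaving out 1 library ended these calls in all 6 cases for C22orf25 and C22orf36 and in 5 for C22orf39. C22orf25, named TANGO2 in RefSeq, stood at 30.3, 33.8 and 31.7 CPM in Scramble, 22.1, 22.1 and 20.4 in KO, 24.5, 21.3 and 19.4 in KO_S404A, 27.1, 25.8 and 20.1 in KO_S47A and 24.1, 27.3 and 20.8 in KO_WT, with no overlap (−0.48, SE 0.10). C22orf36, named LRRC75B in RefSeq, stood at 11.7, 12.7 and 11.5 CPM in Scramble, 8.94, 7.37 and 7.41 in KO, 12.4, 8.13 and 10.9 in KO_S404A, 12.1, 11.3 and 11 in KO_S47A and 9.92, 9.95 and 8.96 in KO_WT. Its KO and KO_WT libraries were below Scramble and its KO_S47A and KO_S404A libraries overlapped with it (−0.29, SE 0.11). C22orf39 differed by −0.47 (SE 0.09) without overlap.

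The 3 APOBEC3 genes, deaminases that turn cytosine to uracil in single-stranded DNA, had mean differences of −0.04 (APOBEC3B), 0.47 (APOBEC3C) and 1.05 (APOBEC3F). APOBEC3F, which restricts retroviruses from the cytoplasm, stood at 4.15, 5.84 and 5.28 CPM in Scramble, 11.4, 9.58 and 8.64 in KO, 12.7, 11.6 and 9.00 in KO_S404A, 12.3, 10.6 and 9.44 in KO_S47A and 12.2, 10.6 and 8.92 in KO_WT. Every knockout-derived library was above every Scramble library, with 8.64 to 12.7 CPM against 4.15, 5.84 and 5.28 CPM, and the log2 difference was 0.95 (SE 0.18) for KO, 1.05 (SE 0.18) for KO_WT, 1.08 (SE 0.18) for KO_S47A and 1.12 (SE 0.18) for KO_S404A. Its call in KO was lost without Scramble 1 or KO 1. APOBEC3B, the nuclear member of the family, stood at 38.2, 41 and 61.6 CPM in Scramble, 45.2, 46.8 and 64.8 in KO, 32.5, 37.9 and 64.6 in KO_S404A, 30.4, 29.7 and 60.7 in KO_S47A and 37.1, 35.2 and 66.9 in KO_WT. It overlapped in every line (−0.04, SE 0.27), and the library numbered 3 was the highest in each. APOBEC3C stood at 0.050, 0.166 and 0.0391 CPM in Scramble, 0.103, 0 and 0.0374 in KO, 0.177, 0.165 and 0.0781 in KO_S404A, 0.204, 0.0375 and 0.182 in KO_S47A and 0.209, 0.0957 and 0.362 in KO_WT, which is 0 to 17 counts per library and too few to place it. The family members are near-identical in stretches, and no source used here says how the counting treated their shared reads, so their values are uncertain. The tested genes just outside the cluster, NPTXR and CBX6 on one side and CBX7 and PDGFB on the other, chosen after their values were seen, lay at −0.76, −0.32, −0.32 and −0.19.

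**Figure D3:**
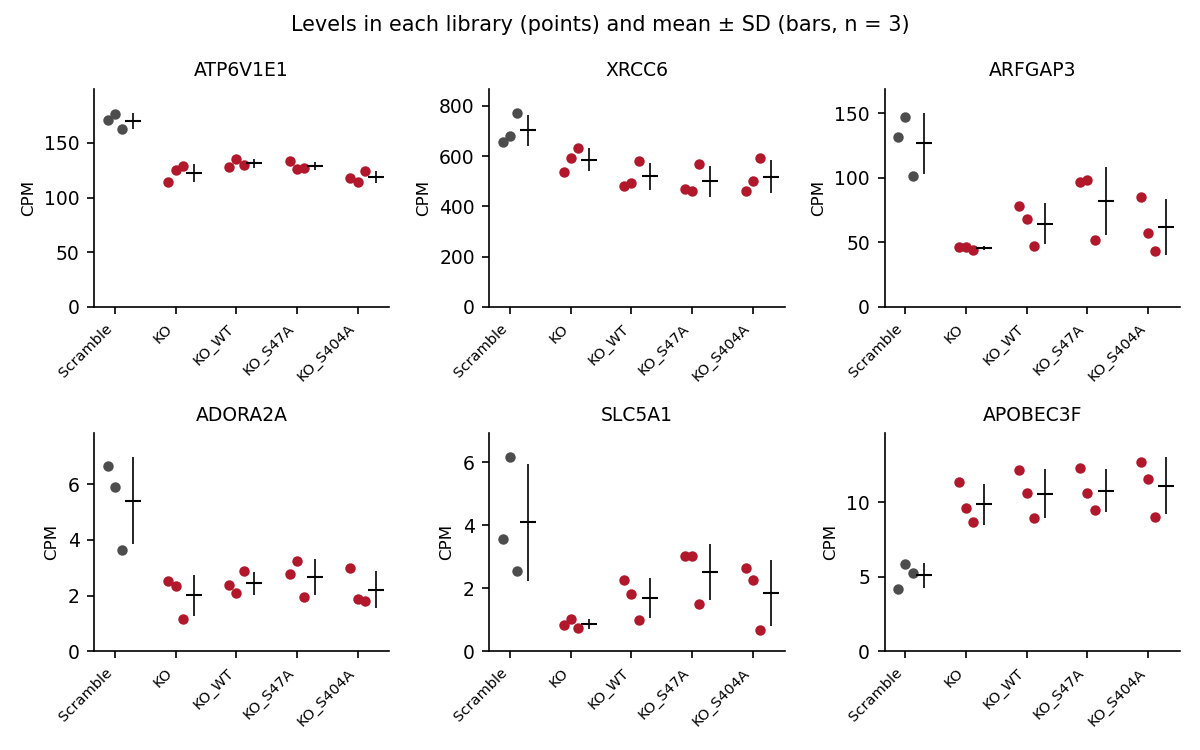
CPM per library of ATP6V1E1, XRCC6, ARFGAP3, ADORA2A, SLC5A1 and APOBEC3F; points are the 3 libraries of a line, bars the mean and SD, and each panel has its own axis from 0. APOBEC3F is above Scramble in all 12 knockout-derived libraries, ATP6V1E1, XRCC6, ARFGAP3 and ADORA2A are below it in all 12, and SLC5A1 overlaps with it.

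Some members moved with the library number in all 5 lines, about as often as other genes did. The library numbered 3 was the highest of its line in every line for 9 members (15.8%: APOBEC3B, CHEK2, CRKL, DGCR8, DRG1, RANBP1, SAMM50, XRCC6 and YWHAH), where this held for 16.3% of all tested genes. It was the lowest in every line for 8 members (14.0%: ARFGAP3, C22orf39, EIF3D, PACSIN2, PATZ1, SLC5A1, ST13 and TOM1), against 15.4% of all. Neither share is above that of all genes. What the library numbers stand for is not in the labels. With the libraries numbered 1 and 2 alone the median of the members was −0.27 for KO, −0.43 for KO_WT, −0.39 for KO_S47A and −0.30 for KO_S404A.

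Whether the shift differed among the knockout-derived lines was tested without Scramble, in 6 contrasts between these lines. The choice of members did not use these contrasts. It did use the libraries of all 4 lines against Scramble, so none of the 6 is independent of the choice. By edgeR 0 of 57 members were called in each of the 6. The background was 0.0281% of all genes in KO_WT minus KO, 0.00702% in KO_S47A minus KO, 0.0211% in KO_S404A minus KO, 0.0% in KO_WT minus KO_S47A and in KO_S404A minus KO_WT, and 0.00702% in KO_S404A minus KO_S47A. DESeq2 also called 0 in each. At an unadjusted p under 0.05 edgeR had 9, 16, 3, 0, 13 and 11 members in that order, against 7.58%, 16.8%, 4.08%, 2.17%, 8.70% and 6.59% of all genes, and DESeq2 had 10, 16, 3, 0, 13 and 11. The lowest adjusted p of a member by edgeR was 0.274, in KO_S47A minus KO. The 95% interval of a member's difference had a median half-width of 0.27 in this fit, close to the size of the shift itself. This fit leaves any spread shared by libraries of the same number in its error. With the replicate number as a block, 14 members were called in KO_S47A minus KO, where 22.1% of all genes were. No member was called in the other contrasts with the block.

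Among the 55 members with a mean of at least 1 CPM, SLC5A1 had the largest differences from KO. It stood above its level in KO by 0.96 (95% interval −0.10 to 2.03) in KO_WT, 1.54 (0.48 to 2.59) in KO_S47A and 1.10 (0.05 to 2.16) in KO_S404A, none of them called. YWHAH lay lowest relative to KO, at −0.60 (−1.35 to 0.15) in KO_S47A. With the libraries numbered 1 and 2 alone, 12 members were called in KO_S47A minus KO, where 21.6% of all genes were, so their share is that of the background. SLC5A1, ARFGAP3, ARSA and ALG12 were higher and APOBEC3B, CHEK2, CRKL, NF2, PIM3, RANBP1, XRCC6 and YWHAH lower there. In KO_S404A minus KO 2 members were called with those libraries, RANBP1 lower and SLC5A1 higher (2.81% of all genes).

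The members' differences between lines went with gene length. In KO_S404A minus KO_WT members of at most 3713 bases, the median length, had a median of −0.05 and longer members one of 0.23, and the Spearman correlation with length over the 57 members was 0.65. It was 0.37 over the other 318 chromosome 22 genes and 0.34 over genes on other chromosomes. In KO_S404A minus KO_S47A it was 0.50 over the members, 0.34 over the other chromosome 22 genes and 0.22 over genes on other chromosomes. In KO_WT minus KO these values were −0.36, −0.19 and −0.18. Over the members it was 0.34 in KO_S404A minus KO, −0.25 in KO_S47A minus KO and −0.26 in KO_WT minus KO_S47A. Genes of a library share its depth and fragment lengths and are not independent points, so these values are descriptions. Leaving out 1 library at a time gave 0.52 to 0.66 over the members in KO_S404A minus KO_WT, with 0.52 without KO_S404A 2. It gave 0.23 to 0.60 in KO_S404A minus KO_S47A, with 0.23 without KO_S47A 3. In KO_WT minus KO it gave −0.45 to −0.15, with −0.15 without KO 1. Against Scramble the medians of the shorter and the longer members were −0.37 and −0.19 in KO and −0.42 and −0.17 in KO_S404A, but −0.42 and −0.45 in KO_WT and −0.41 and −0.40 in KO_S47A. The part of library quality in these values was not tested.

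**Figure D4:**
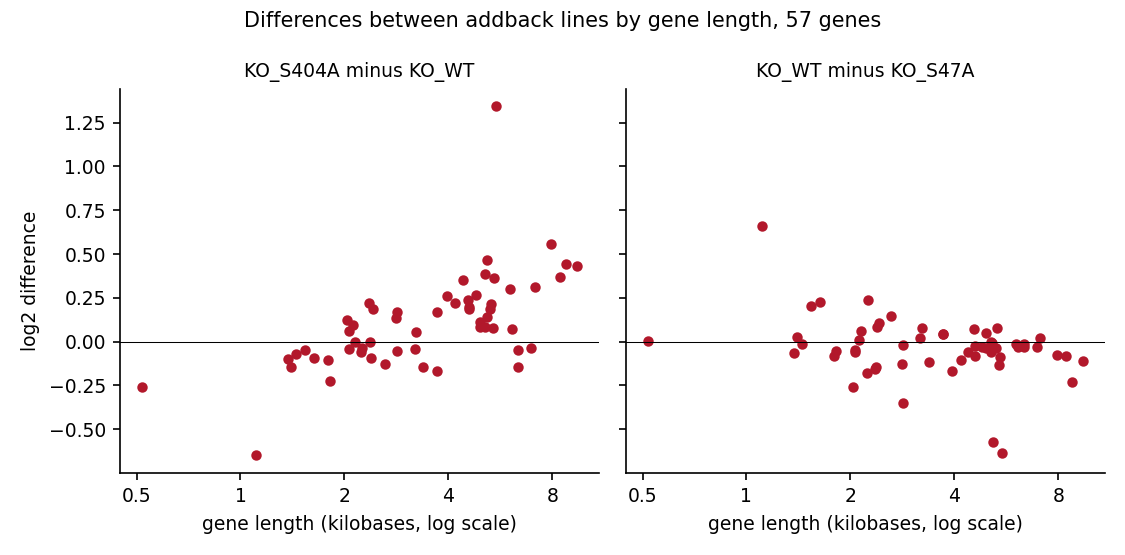
Log2 difference of the 57 members against gene length in kilobases on a log axis, for KO_S404A minus KO_WT (left) and KO_WT minus KO_S47A (right); each point is 1 gene. On the left members of at most 3713 bases have a median of −0.05 and longer ones of 0.23, and on the right 0.00 and −0.04; the outlying points on the left at 1.34 and −0.65 are TIMP3 and APOBEC3C, which have few counts.

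Genes that work with the members but lie on other chromosomes had medians near 0. From known complexes 114 partner genes off chromosome 22 were listed by membership, not by how they moved, and 111 were tested. Their median log2 difference in KO minus Scramble was 0.06, where that of the members was −0.30, and 1 of 111 was called lower and 0 higher by edgeR, against 1.72% and 0.969% of all tested genes. At an unadjusted p under 0.05 by edgeR there were 5, where 1817 of all 14246 tested genes were. DESeq2 called 2, where it called 3.16% of all genes lower. The share of all genes that DESeq2 called higher is not given, so nothing is read from the 2. The 1 gene called by edgeR was PARVA, alpha-parvin, a relative of PARVB that binds the same kinase. PARVA stood at 22.8, 23.1 and 27.8 CPM in Scramble and 17.1, 15.3 and 18.6 CPM in KO, without overlap, a log2 difference of −0.53 (SE 0.12, adjusted p = 0.0255 by edgeR). Leaving out 1 library gave an adjusted p between 0.0359 and 0.135, and PARVA was not called without Scramble 3, KO 1 or KO 2. Over all alternatives its adjusted p ran from 0.000647 to 0.135.

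PARVA was also called lower in KO_WT, KO_S47A and KO_S404A, at −0.66, −0.64 and −0.64 (SE 0.12 each). In KO_S47A the Polycomb subunit CBX8 was called higher (0.48, SE 0.10) and FAM98A, of the tRNA ligase complex, lower (−0.35, SE 0.09). Complex by complex, 22 pairs of a member and its complex (21 complexes) were set against each other in the mean of the 4 lines. The member lay below the median of its partners in all 22 pairs and below every partner in 20. Members were chosen as low against Scramble and partners were not, so these counts are descriptions and support nothing. EIF3D lay at −0.43 with 10 eIF3 partners at a median of −0.03 (−0.18 to 0.10), and ATP6V1E1 at −0.44 with 7 V-ATPase partners at 0.02 (−0.01 to 0.08). XRCC6 lay at −0.41, with a median of 0.02 for XRCC5 and PRKDC, and TOMM22 at −0.48 with 5 translocase partners at −0.05 (−0.19 to 0.13). The 2 exceptions were PARVB, below which lay PARVA (−0.62), and AP1B1, below which lay AP1S2 (−0.39). DGCR8 lay at −0.12 and its 1 partner at −0.11. Single lines held further exceptions. In KO_S47A DGCR8 (−0.19) lay above its partner (−0.27). Among the others, 4 of 14 SWI/SNF partners lay below SMARCB1 in KO_WT, and 3 of 8 splicing partners lay below SF3A1 in KO and in KO_S404A.

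**Figure D5:**
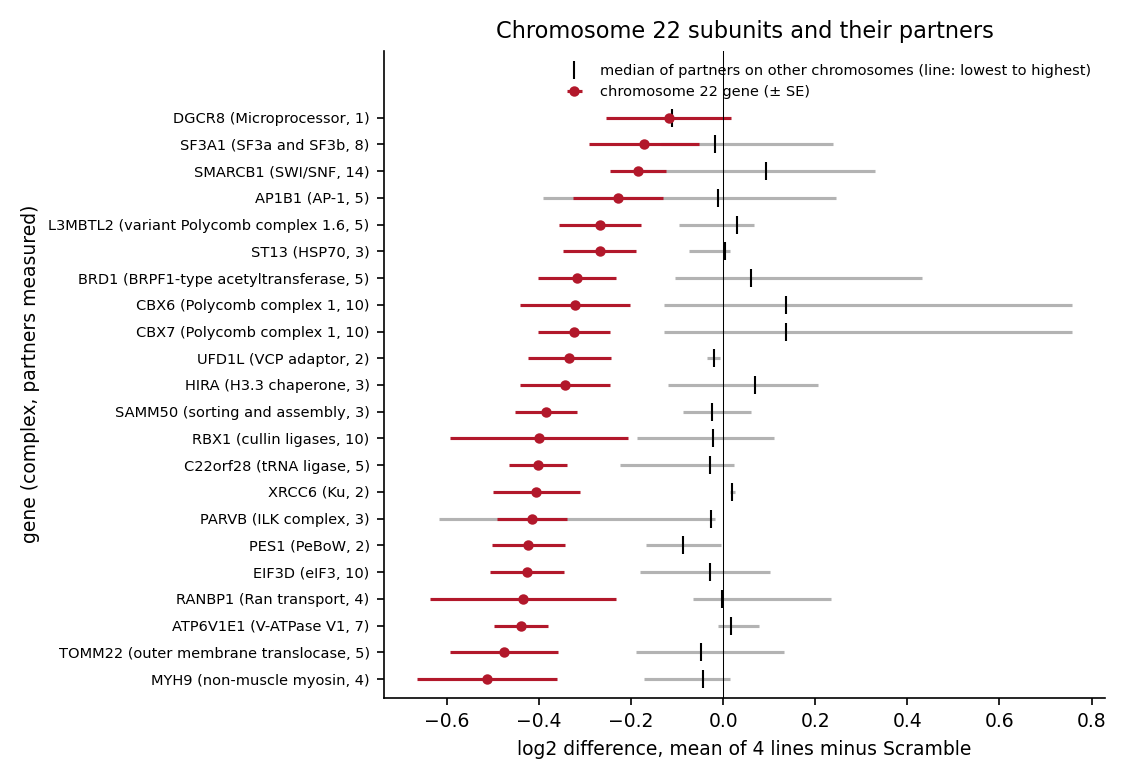
Log2 difference (mean of the 4 knockout-derived lines minus Scramble) of each member and of the partners of its complex that lie off chromosome 22; 1 row per pair of member and complex. The members lie to the left of the median of their partners in all 22 rows, and the partner medians lie between −0.11 and 0.14.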

How the data were processed

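RNA was sequenced from the 15 libraries described, 3 in each of 5 lines, and grouped by the genotype in the labels. The authors deposited raw read counts per gene in 1 table per library, which were used as they are. STAR and CASAVA are named without versions in the submitters' processing notes, and no source used here gives the genome build, the annotation or the strand setting of the counting, so reads of overlapping or antisense genes cannot be told apart. The deposited tables also hold FPKM values, scaled by the authors to gene length and used only for the lengths they imply. The members and all lists were chosen with earlier results of these data known.

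Reads assigned to no gene (13.2% to 20.6% of a library) were left out. Gene identifiers of 20623 entries matched the RefSeq table (GRCh38.p14), which gave chromosomes, gene order and promoter windows, and 47 of 57 members had a promoter entry. Genes were filtered with filterByExpr, scaled by TMM and fitted in edgeR 4.0.16 (R 4.3.3) with 1 mean per line over all 15 libraries and 10 residual degrees of freedom. Calls were made at an adjusted p under 0.05 (Benjamini-Hochberg over all 14246 genes). The SE is an approximation from the log2 difference and its F statistic, intervals are 95%, and levels are TMM-scaled CPM. The fit was tested on simulated data. No pair of libraries of a line agreed within sampling noise (chi-square per degree of freedom 8.34 to 252), so all were kept.

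Values in every library are given for PNPLA2, SLC5A1, the 3 APOBEC3 genes and, in each role, the member with the lowest and the member with the highest mean difference of the 4 lines by a written rule. ATP6V1E1 was added to them after its values were seen. Alternatives were DESeq2 1.42.0, RLE size factors, TMM factors without chromosome 22, no filter, the replicate number as a block, the libraries numbered 1 and 2 alone, and each library left out.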

Additional observations from a re-analysis of the deposited data

How the results depend on the processing

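The direction of the median of the members held under every alternative run: without 1 library it lay between −0.32 and −0.26 in KO and between −0.46 and −0.28 in the other 3 lines, and in KO it was −0.27 with the libraries numbered 1 and 2 alone. None of these medians, nor of the counts below, reversed. Single members did: of 228 pairs of a member and a comparison with Scramble, 23 changed sign under at least 1 alternative, 9 of them in KO (among them RANBP1, DGCR8, YWHAH and CHEK2) and 10 in KO_S404A, and none of the 23 was called. Of the values recomputed 142 stayed within 1.5 times the count (or within the spread, for medians) and 38 did not. Counts of members called lower moved more. Leaving out 1 library gave 3 to 7 for KO (0.864% to 1.29% of all genes) and 2 to 12 for KO_WT (0.965% to 1.59%). It gave 5 to 15 for KO_S47A (0.922% to 3.88%) and 3 to 7 for KO_S404A (1.00% to 1.36%). In KO_S47A and KO_S404A DESeq2 called 27 and 22 (4.20% and 3.68% of all genes), and a fit to libraries 1 and 2 of each line called 24 and 14 (7.57% and 3.60%). With a replicate block the counts were 24 for KO, 40 for KO_WT, 38 for KO_S47A and 29 for KO_S404A, where 5.01%, 5.45%, 9.88% and 5.51% of all genes were called lower. Between lines, KO_S47A minus KO had 14 members called with the replicate block (22.1% of all genes) and 12 with the libraries numbered 1 and 2 alone (21.6%), and KO_S404A minus KO had 2 with those libraries (2.81%). Of the partner genes 2 were called in KO minus Scramble by DESeq2 and with the libraries numbered 1 and 2 alone (PARVA and BMI1), 3 with the replicate block (SF3B3 as well), and 0 to 1 without 1 library. PARVA was lower and BMI1 and SF3B3 higher. Of all genes DESeq2 called 3.16% lower, the fit to libraries 1 and 2 3.39%, the block 5.01%, and the fits without 1 library 0.864% to 1.29%. Shares called higher are not given, so nothing is read from these partner counts. The cause of these moves was not tested.

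Library numbers were not taken as pairs in the main fit, because the deviations of 2 of 30 same-numbered pairs correlated at or under 0.1. All 30 correlations were positive, from 0.0197 to 0.675, with medians of 0.24, 0.18 and 0.55 for the numbers 1, 2 and 3. A library had its closest match in the other line under its own number in 41 of 60 cases. Same-numbered libraries thus share a spread that the main fit leaves in its error. The counts of members called between lines depend on this choice. Members with few counts (TIMP3, APOBEC3C) are limited by depth, and without the block the 95% interval of a difference between lines had a median half-width of 0.27 over the members. With the block smaller differences were called in KO_S47A minus KO, those of SAMM50 (−0.23, adjusted p = 0.0318 by edgeR) and XRCC6 (−0.24, adjusted p = 0.025).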
